A study of Homo sapiens with 6 samples.

Results

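The 10 genes described here are the FGF receptors FGFR1, FGFR2, FGFR3, FGFR4 and FGFRL1 and the FGF ligands FGF1, FGF2, FGF9, FGF13 and FGF18, chosen by gene name from the 58735 genes counted in H1155 cells. H1155 is an established human neuroendocrine large cell lung cancer line that grows as floating clusters. RNA was measured in 6 libraries, of which 3 were labelled WT, with the genotype Wildtype, and 3 were labelled GFI1-KO, with a GFI1 knockout. Both groups were untreated and were grown in DMEM with fetal bovine serum. The methods describe CRISPR/Cas9 cutting of the GFI1 promoter region and sorting of the knockout cells into single-cell clones, and the labels do not say from how many clones the 3 libraries came. Nor do they say whether the 3 libraries of a group came from separate cultures, so that p-values measure only the spread between these libraries.

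Fibroblast growth factors are signalling proteins that bind receptor tyrosine kinases at the cell surface together with heparan sulfate chains, and the activated receptors pass the signal through the docking protein FRS2 to the RAS-ERK cascade. FGFRL1 binds FGFs but lacks the intracellular kinase domain of the other 4 receptors. In the developing lung, FGF signals between mesenchyme and epithelium direct branching, and FGFR1 is amplified in a share of lung cancers. The comparison asks how the expression of this receptor and ligand system differed between H1155 cells and their GFI1-KO derivatives.

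Library totals lay between 14882914 and 17692882 counts, and the smallest level taken as detectable, 3 counts, corresponded to 0.170 to 0.202 CPM. Of 17514 genes that passed the filter on low counts, 72.4% differed between the groups at an adjusted p of at most 0.05 in edgeR (quasi-likelihood test, Benjamini-Hochberg adjustment), 36.5% being higher and 35.9% lower in GFI1-KO, and in 74.4% no library of one group reached into the range of the other. A call by itself therefore sets no gene apart. The counts of GFI1 were 153, 106 and 125 in WT and 174, 188 and 170 in GFI1-KO (log2 fold change 0.31, adjusted p = 0.0273, edgeR). Transcripts of the edited gene were therefore not reduced in the GFI1-KO libraries, and each direction given here rests on the labels. The study also probed GFI1 protein by immunoblot, which these RNA counts do not measure. In such bulk RNA, fewer cells of a type and less RNA per cell cannot be told apart. The neuroendocrine markers NEUROD1, INSM1, CHGA, SYP and NCAM1 were expressed in both groups, with mean normalized counts between 591 for CHGA in WT and 9759 for SYP in GFI1-KO. The 6 leukocyte markers summed to between 4.198 and 11.3 normalized counts per library. Of 6 fibroblast markers 4 were tested, COL3A1 being higher and COL1A1, COL1A2 and PDGFRB lower in GFI1-KO, while DCN had no count, and their sum lay between 3142 and 3227 in WT and between 2219 and 2298 in GFI1-KO. The part of such markers in the results was not tested.

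Among the kinase receptors, FGFR1 and FGFR3 were higher in GFI1-KO and no difference was detected for FGFR4, before the correction for GC content given below. FGFR2 was near the limit of detection. FGFR1 (ENSG00000077782), at 38400215 to 38468834 of chromosome 8 (GRCh38, minus strand), is a main receptor of FGF2 in neural and mesenchymal cells. Its normalized count, that is the count scaled by TMM to the mean library, was 591, 587 and 563 in WT and 877, 832 and 828 in GFI1-KO. Every GFI1-KO library lay above every WT library, and the means differed by 1.46-fold (log2 fold change 0.54, standard error 0.06, adjusted p = 3.7e-09, edgeR). FGFR1 overlaps LETM2 on the opposite strand by 9313 bases, and LETM2 had 286, 204 and 226 counts in WT and 249, 211 and 239 in GFI1-KO, with no such separation of the groups.

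FGFR3 (ENSG00000068078), on the plus strand of chromosome 4 from 1793293 to 1808872, restrains the growth of cartilage in the skeleton and drives proliferation in some epithelial cancers. It had 75.8, 71.9 and 74.5 normalized counts in WT and 108, 135 and 125 in GFI1-KO. The groups did not overlap, and the mean was 1.65-fold higher in GFI1-KO (log2 fold change 0.72, standard error 0.15, adjusted p = 1.1e-04, edgeR). After a correction of the fold changes for GC content and gene length, called the GC correction, the value was 0.13 (adjusted p = 0.474, edgeR), so that the call for FGFR3 depended on that choice.

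FGFR4 (ENSG00000160867), on the plus strand of chromosome 5 from 177086886 to 177098144, responds to FGF19 with the co-receptor KLB. It had 121, 109 and 96.6 normalized counts in WT and 125, 121 and 121 in GFI1-KO, and GFI1-KO replicate 3 lay just under WT replicate 1, so that the groups overlapped. The log2 fold change was 0.17 with a 95% interval from -0.10 to 0.43 (adjusted p = 0.266, edgeR), and under the GC correction it turned to -0.46 (adjusted p = 0.00423, edgeR). FGFR2 (ENSG00000066468; chromosome 10, minus strand, from 121478334 to 121598458), a receptor of lung epithelium, had 5, 4 and 0 counts in WT and 6, 3 and 4 in GFI1-KO. These counts did not pass the filter, and the depth was too low to detect a difference.

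FGFRL1 was the receptor with the highest level per length in both groups, and it fell in GFI1-KO. This rank depends on the deposited lengths, 4145 bases for FGFRL1 and 13842 for FGFR1. Of the counts of the 5 receptors in GFI1-KO, FGFR1 held 50.4% and FGFRL1 34.8%, so that by counts FGFR1 came first. FGFRL1 (ENSG00000127418) lies on the plus strand of chromosome 4 from 1009936 to 1026897, and its product is often described as a decoy receptor. It had 945, 1043 and 940 counts in WT and 594, 645 and 613 in GFI1-KO, or 1036 ± 103 and 585 ± 23.6 normalized counts (SD, n = 3 each). The groups were far apart, with WT replicate 2 the highest library, and the mean normalized count was 1.77-fold lower in GFI1-KO (log2 fold change -0.82, standard error 0.06, adjusted p = 1.2e-11, edgeR). With each library left out in turn the log2 fold change lay between -0.88 and -0.75, and under the GC correction it was -1.49 (adjusted p = 1.8e-16, edgeR).

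**Figure D1:**
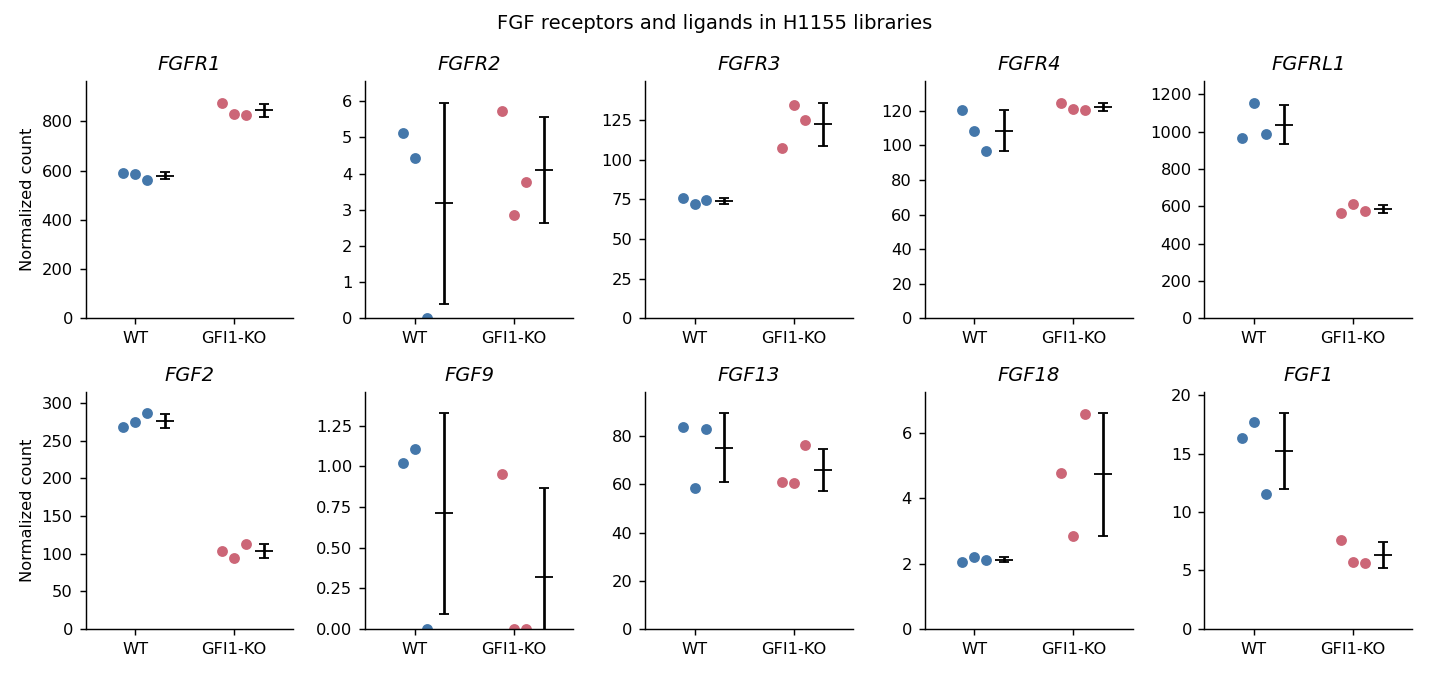
Normalized counts of the 5 FGF receptors (top) and 5 FGF ligands (bottom) in the 3 WT and 3 GFI1-KO libraries. Each panel has its own axis from 0; points are libraries and black bars the mean ± SD. FGFR1 and FGFR3 sit higher and FGFRL1, FGF2 and FGF1 lower in GFI1-KO without overlap, while FGFR2, FGF9 and FGF18 stay below 10 normalized counts.

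Of the ligands, FGF2 and FGF1 were lower in GFI1-KO. FGF2 (ENSG00000138685; chromosome 4, plus strand, from 122826708 to 122898236), or basic FGF, is a mitogen that leaves cells without a signal peptide. It had 268, 275 and 287 normalized counts in WT and 103, 94.8 and 113 in GFI1-KO. The highest GFI1-KO library had less than the lowest WT library, and the mean was 2.67-fold lower (log2 fold change -1.42, standard error 0.11, adjusted p = 6.9e-12, edgeR). The GC correction brought the log2 fold change to -0.86 (adjusted p = 1.9e-07, edgeR). FGF2 overlaps NUDT6 on the opposite strand by 9540 bases, and 10.5% of the 50-base words in its transcripts also occur in other genes, so that its counts are uncertain, since the strand setting of the counting is not given in the sources used here. NUDT6 had 86, 72 and 100 counts in WT and 79, 80 and 68 in GFI1-KO.

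FGF1 (ENSG00000113578; chromosome 5, minus strand, from 142592178 to 142698070), acidic FGF, binds all kinase receptors of the family. It had only 16, 16 and 11 counts in WT and 8, 6 and 6 in GFI1-KO. All GFI1-KO libraries were below all WT libraries, and the mean normalized count was 2.41-fold lower, from 15.2 ± 3.25 to 6.32 ± 1.13 (SD, n = 3 each). In edgeR the adjusted p was 0.00936 (log2 fold change -1.25, standard error 0.42), whereas DESeq2 gave an adjusted p of 0.0886. The 95% Poisson intervals of the counts, which cover counting error only, reached from 5.49 to 19.7 in WT replicate 3 and from 3.45 to 15.8 in GFI1-KO replicate 1, and so overlapped. FGF1 also overlaps SPRY4-AS1 on the opposite strand by 79824 bases, which had 3 to 7 counts in WT and 15 to 22 in GFI1-KO.

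FGF13 (ENSG00000129682; chromosome X, minus strand, from 138614731 to 139222777) belongs to the FGF homologous factors, which stay inside the cell and bind voltage-gated sodium channels. It had 84.0, 58.7 and 82.9 normalized counts in WT and 61.0, 60.7 and 76.2 in GFI1-KO, and the groups overlapped. The log2 fold change was -0.19 with a 95% interval from -0.56 to 0.17 (adjusted p = 0.361, edgeR). FGF13-AS1, on the opposite strand, had no count in any library.

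FGF18 (ENSG00000156427; chromosome 5, plus strand, from 171419656 to 171457623), a ligand of skeletal and lung growth, had 2 counts in each WT library and 5, 3 and 7 in GFI1-KO. The groups did not overlap, as was the case for 74.4% of all tested genes, but the counts in WT were under the floor of 3 and FGF18 did not pass the filter. FGF9 (ENSG00000102678; chromosome 13, plus strand, from 21671383 to 21704498), a ligand of the lung mesothelium and epithelium, had 1, 1 and 0 counts in WT and 1, 0 and 0 in GFI1-KO, which allows no comparison. Of the 10 genes, 7 were therefore tested, FGFR1 and FGFR3 being higher and FGFRL1, FGF2 and FGF1 lower in GFI1-KO, in a table where 36.5% of genes were higher and 35.9% lower.

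Levels of different genes were compared as FPKM, that is counts per kilobase of deposited gene length and per total count, scaled as usual. In WT, FGFRL1 came first with 15.2 ± 1.51 FPKM, followed by FGFR1 with 2.54 ± 0.0659 and FGF2 with 2.48 ± 0.0843, which overlapped, FGFR4 with 1.36 ± 0.152 and FGFR3 with 0.927 ± 0.0241 (SD, n = 3 each). FGF13 and FGF1 followed at 0.221 ± 0.0420 and 0.175 ± 0.0373 and could not be ordered by FPKM. Their deposited lengths are 20681 and 5275 bases, and FGF13 had more counts in WT, 53 to 82 against 11 to 16. FGF18, FGFR2 and FGF9 were below 0.1 FPKM in each WT library. Among tested protein-coding genes, 75.7% had a lower FPKM in WT than FGFRL1 and 29.7% a lower one than FGFR1.

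In GFI1-KO the order was FGFRL1 with 8.46 ± 0.344 FPKM, FGFR1 with 3.67 ± 0.114, FGFR4 with 1.52 ± 0.0275 and FGFR3 with 1.52 ± 0.170, the latter pair overlapping, and then FGF2 with 0.917 ± 0.0810 (SD, n = 3 each). FGF2, which overlapped FGFR1 in FPKM in WT, stood below all 3 of the expressed kinase receptors in GFI1-KO. The FPKM ratio of FGFR1 to FGF2 was 1.08, 1.05 and 0.961 in WT and 4.17, 4.30 and 3.59 in GFI1-KO. This ratio was higher in each GFI1-KO library (p = 0.1 in an exact permutation test, two-sided, which is the lowest p possible with 3 libraries against 3). The GC correction was not applied to the ratio. It left the log2 fold change of FGFR1 at 0.51 and brought that of FGF2 from -1.42 to -0.86.

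The make-up of the receptor pool differed between the groups. FGFRL1 made up 73.5%, 77.6% and 75.8% of the summed FPKM of the 5 receptors in WT and 54.9%, 56.5% and 55.6% in GFI1-KO. In WT and GFI1-KO, the share was 12.7% ± 0.836 and 24.1% ± 1.23 for FGFR1, 4.65% ± 0.446 and 9.96% ± 0.909 for FGFR3 and 6.84% ± 0.907 and 10.0% ± 0.382 for FGFR4 (SD, n = 3 each). For each of these 4 shares the groups did not overlap (p = 0.1 each in an exact permutation test, two-sided). FGFR4 thus had a larger share of the 5 receptors in GFI1-KO, while no difference was detected in its own level without the GC correction. These shares were computed without that correction, under which FGFR4 was lower in GFI1-KO (log2 fold change -0.46, adjusted p = 0.00423, edgeR).

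Among the 4 kinase receptors alone, FGFR1 held 52.4% ± 1.38 of the summed FPKM in WT and 54.5% ± 1.799 in GFI1-KO, and the groups overlapped (SD, n = 3 each; p = 0.2, exact permutation test). FGFR3 held 19.1% ± 0.970 and 22.5% ± 2.42, also with overlap (p = 0.2, exact permutation test). FGFR4 held a smaller part in GFI1-KO, 28.0% ± 1.74 in WT and 22.6% ± 0.454 in GFI1-KO, without overlap (SD, n = 3 each; p = 0.1, exact permutation test), so that the direction of its share depended on whether FGFRL1 was included. The summed FPKM of the 4 kinase receptors was 5.09, 4.87 and 4.62 in WT and 6.72, 6.80 and 6.67 in GFI1-KO, 1.39-fold higher in the latter. With FGFRL1 included, the sum was 20.03 ± 1.52 in WT and 15.2 ± 0.398 in GFI1-KO (SD, n = 3 each). Without the GC correction, the kinase receptors together were thus higher and the whole pool was lower in GFI1-KO. Shares and sums under that correction were not computed. Under it the log2 fold change was 0.51 for FGFR1, 0.13 for FGFR3, -0.46 for FGFR4 and -1.49 for FGFRL1.

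**Figure D2:**
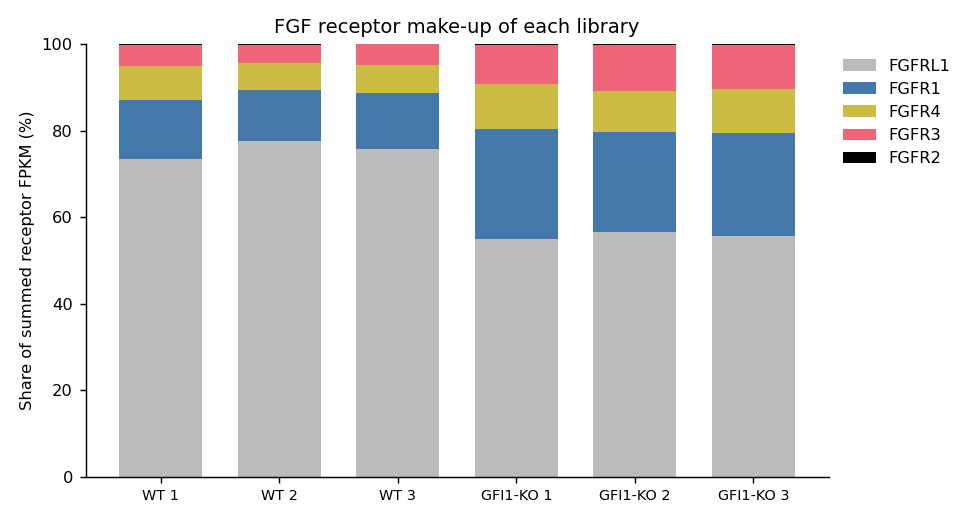
Share of each FGF receptor in the summed FPKM of the 5 receptors, as stacked bars from 0 to 100% for each WT and GFI1-KO library. FGFRL1 takes 73.5% to 77.6% in WT and 54.9% to 56.5% in GFI1-KO, and FGFR1, FGFR4 and FGFR3 take the rest, with FGFR2 hardly visible at the top.

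Fold changes in these libraries followed the GC content of genes, and the 10 genes differ widely in it. FGFRL1, FGFR4 and FGFR3 have transcripts with 63.5%, 63.4% and 62.2% GC, FGFR1 has 51.3%, and FGF1, FGF13 and FGF2 have 44.5%, 38.9% and 37.6%. Each gene was therefore set beside all tested genes whose GC content lay within 2 percentage points of its own. For FGFR3 these 1497 genes had a median log2 fold change of 0.67, close to its own 0.72, and 75.5% of them were higher in GFI1-KO. For FGFRL1 the median of 1229 genes was 0.69, whereas FGFRL1 itself was at -0.82, and only 8.14% of these genes were lower in GFI1-KO. For FGFR4 the median of 1255 genes was also 0.69, above its own 0.17.

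For FGFR1 the genes of like GC content had a median of 0.16, below its own 0.54. For FGF2 the median was -0.49, above its own -1.42, and 75.8% of the genes of like GC content were lower in GFI1-KO. Under the GC correction, 60.7% of tested genes were called, 32.5% higher and 28.2% lower in GFI1-KO, and of the 7 tested FGF genes FGFR1 was higher (log2 fold change 0.51, adjusted p = 1.9e-08, edgeR) while FGFRL1, FGF2, FGF1 and FGFR4 were lower. FGF13 moved to 0.37 and did not pass the test (adjusted p = 0.0903, edgeR). The labels give no preparation batch, and one that followed the groups cannot be told apart from the genotype.

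**Figure D3:**
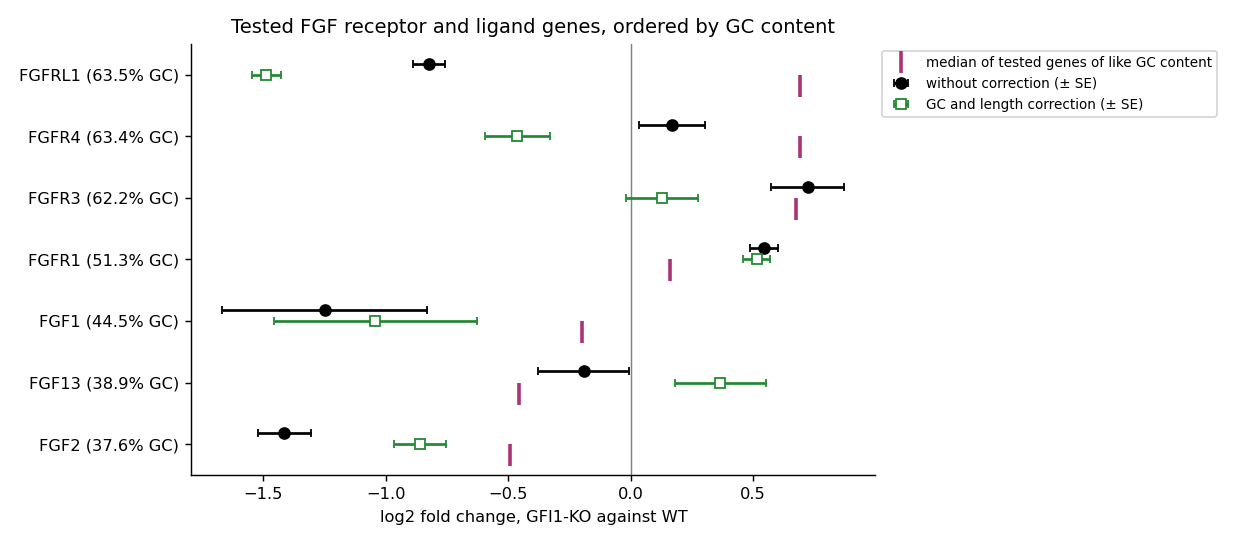
log2 fold change (GFI1-KO against WT) of the 7 tested genes, ordered by the GC content of their longest transcript. Black points are values without correction and green squares those with the GC and length correction, both ± standard error; purple ticks are the median of all tested genes of like GC content. FGFR3 lies near its tick and FGFR1 and FGF13 above theirs, whereas FGFRL1, FGFR4, FGF2 and FGF1 lie below theirs.

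GFI1 is a repressor that binds DNA through a core of the letters AATC, and RefSeq promoters (GRCh38.p14, 250 bases before to 50 after each start) were searched for it on both strands. Promoters of 8 of the 10 genes were listed, and FGFR1 and FGF9 were not among them. The core, or its reverse complement GATT, occurred in 11 of the 17 listed promoters (64.7%), compared with 69.0% of all 35116. The promoters of FGFR3, FGFR4 and FGF18 held no copy. That of FGFR3 has 86.3% GC and 51 CpG dinucleotides, and 0.102% of all promoters are as rich in GC or richer. For the 3 genes that fell in GFI1-KO, the single copy in the promoter of the listed start farthest upstream is shown, with the core in capitals and 10 bases on each side, on the strand of the gene, and they are a description of the sequence and not evidence of binding.
FGFRL1, chr4:1012225-1012248, plus strand: aagcgccaggAATCcagacggtgt
FGF2, chr4:122826825-122826848, plus strand: gcgggtgccaGATTagcggacgcg
FGF1, chr5:142698278-142698301, minus strand: aaaaggtagcAATCagctaattga
The FGFRL1 copy begins at position -229 and the FGF1 copy at position -221 from the start site, while that of FGF2 begins at position 4, just inside the transcript. The RefSeq starts of FGFRL1 and FGF2 lie inside the genes as deposited.

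FGFR3 and FGFRL1 lie 783 kb apart near the end of the short arm of chromosome 4, in a stretch where most genes were lower in GFI1-KO. Of the 54 other protein-coding genes tested in the first 5 Mb of the chromosome, 39 were lower and 9 higher in GFI1-KO (median log2 fold change -0.74), while over all tested protein-coding genes 38.9% were lower and the median was 0.01. FGFRL1, at -0.82, lay near the median of the stretch without correction and FGFR3, at 0.72, was among its few higher genes. Under the GC correction, 47 of the 54 were lower and 3 higher, with a median of -0.95, so that FGFRL1, at -1.49, lay well below that median, while FGFR3, at 0.13, did not pass the test. Including FGFR3 and FGFRL1, 40 of 56 genes were lower in the first 5 Mb. On the rest of chromosome 4 the figures were 306 of 446 genes, with a median of -0.47, and 187 genes with a median of -0.09 after the GC correction. The number of copies of this stretch was not measured in these data.

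The genes on either side of FGFR3 fell while FGFR3 did not. TACC3, a spindle protein, went from 2836 ± 144 to 1818 ± 37.4 normalized counts (log2 fold change -0.64, adjusted p = 1.2e-13, edgeR), and LETM1, a mitochondrial inner membrane protein, from 1806 ± 39.8 to 798 ± 18.4 (log2 fold change -1.18, adjusted p = 7.1e-18, edgeR; SD, n = 3 each). The FPKM of FGFR3 as a percentage of that of LETM1 was 7.03, 6.90 and 6.85 in WT and 22.2, 28.9 and 26.8 in GFI1-KO. The groups did not overlap in this ratio (p = 0.1, exact permutation test, again the lowest possible). Relative to its neighbours, FGFR3 was therefore higher in every GFI1-KO library.

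Beside FGFRL1, the neighbours did not all move with it. IDUA, a lysosomal enzyme, rose from 128 ± 12.04 to 194 ± 17.9 normalized counts (log2 fold change 0.60, adjusted p = 7.1e-05, edgeR), or -0.17 under the GC correction (adjusted p = 0.203, edgeR), and it overlaps SLC26A1 on the opposite strand. RNF212, a meiotic recombination factor on the other side, had 811 ± 12.2 normalized counts in WT (SD, n = 3) and no count in GFI1-KO, which is at least 286-fold lower against a floor of 3 counts per library. NSG1 (log2 fold change -1.81) and POLN (-1.51) followed RNF212 as the largest falls among genes with a mean of at least 50 normalized counts over all 6 libraries, while ATP5ME (1.33), SPON2 (1.09) and SLC26A1 (0.98) rose most. Under the GC correction the rises were 0.88 for ATP5ME, 0.45 for SPON2 and 0.24 for SLC26A1, the last without a call (adjusted p = 0.290, edgeR). PDE6B, chosen after its values had been seen, had 52, 85 and 70 counts in WT and 0, 0 and 2 in GFI1-KO.

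**Figure D4:**
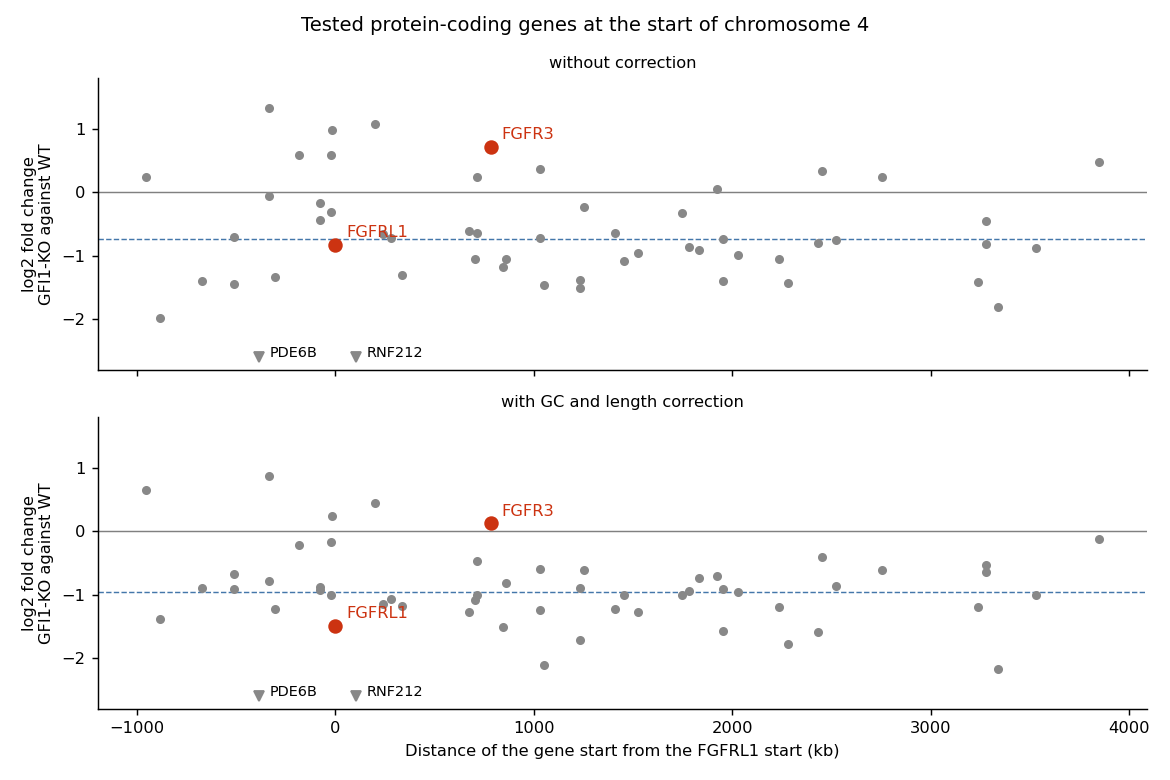
log2 fold change (GFI1-KO against WT) of the 56 protein-coding genes tested in the first 5 Mb of chromosome 4, by distance of the gene start from that of FGFRL1 in kb, without (top) and with (bottom) the GC and length correction. Grey points are genes, triangles are genes below the axis, red points FGFRL1 and FGFR3, and the dashed line the median, -0.74 above and -0.95 below. Most genes lie under 0 and FGFR3 above the dashed line in both panels.

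Windows of 2 Mb around the other genes were described in the same way, with no test between windows. Over all 13949 tested protein-coding genes, 39.6% were higher and 38.9% lower. After the GC correction 5015 of them were higher and 4192 lower. Around FGFR1, 12 of 21 tested protein-coding genes were higher and 8 lower (median log2 fold change 0.17), and after the GC correction 16 were higher and 1 lower (median 0.28). Around FGF2, 1 of 12 was higher and 8 lower (median -0.49), and after the GC correction 3 were higher and 3 lower. Around FGFR4, 24 of 46 were higher and 10 lower (median 0.18), and after the GC correction 15 and 14 (median -0.04). Around FGFR2, 16 of 22 were lower and 4 higher (72.7% and 18.2%), much as in the first 5 Mb of chromosome 4 (71.4% and 17.9%), but after the GC correction 11 were lower and 6 higher (median -0.05), whereas 48 of 56 were lower in that stretch. Windows of FGF9, FGF13, FGF1 and FGF18 had medians between -0.30 around FGF9 and -0.09 around FGF18. After the GC correction their medians lay between -0.12 around FGF13 and -0.002 around FGF9.

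Other parts of the FGF system were described with 8 gene lists, with no test of a list as a whole. Over all tested genes, 36.5% were higher and 35.9% lower in GFI1-KO, or 32.5% and 28.2% under the GC correction. Of 17 further FGF ligands, 6 had no count in any library and 6 were tested, with 2 of them higher and 2 lower in GFI1-KO (median log2 fold change 0.06, against 0.00 over all tested genes). FGF12, an FGF homologous factor like FGF13 and the most expressed of them, fell from 781 ± 10.7 to 573 ± 20.5 normalized counts (log2 fold change -0.45, adjusted p = 1.5e-07, edgeR), but was at 0.02 under the GC correction (adjusted p = 0.776, edgeR). FGF5, which ends the growth phase of hair follicles, fell from 152 ± 2.53 to 69.8 ± 5.62 (log2 fold change -1.13, adjusted p = 5.4e-08, edgeR; SD, n = 3 each), and remained lower at -0.54 under the GC correction. The 2 higher ligands were FGF21 and FGF22, which are named with their values known, with means between 6.38 and 19.9 normalized counts, and neither passed the test under the GC correction.

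Of 11 co-receptors and carriers, 5 were tested, 3 being higher and 1 lower, and 1 and 2 under the GC correction. The shares over all tested genes were 36.5% and 35.9%, and 32.5% and 28.2% under that correction. GLG1, a Golgi glycoprotein that binds FGFs, rose from 3233 ± 67.6 to 3707 ± 19.0 normalized counts (log2 fold change 0.20, adjusted p = 8.7e-06, edgeR), and FIBP, which binds FGF1, from 1292 ± 66.4 to 1509 ± 46.4 (log2 fold change 0.22, adjusted p = 1.2e-04, edgeR; SD, n = 3 each), turning to -0.13 under the GC correction. KLB, the co-receptor of FGFR4 for FGF19, had 14.9 ± 3.14 and 15.1 ± 4.03 normalized counts in WT and GFI1-KO, and showed no detectable difference. FLRT1 and FGFBP3 are named with their values known. FLRT1, a membrane protein that binds FGF receptors, was higher (log2 fold change 0.63, adjusted p = 0.0167, edgeR), but at 0.06 under the GC correction, and FGFBP3, an FGF carrier, was lower (49.3 ± 7.49 and 31.9 ± 4.08 normalized counts; SD, n = 3 each).

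Heparan sulfate proteoglycans, which hold FGFs at their receptors, were mostly higher in GFI1-KO. Of 12 genes, 11 were tested, and 8 of these were higher and 2 lower (median log2 fold change 0.81), in a table where 36.5% of genes were higher and 35.9% lower. Their summed normalized counts lay between 8344 and 9023 in WT and between 17180 and 17854 in GFI1-KO. SDC4, a syndecan of focal adhesions, rose from 625 ± 69.7 to 3059 ± 98.7 normalized counts (log2 fold change 2.29, adjusted p = 1.9e-22, edgeR), GPC1 from 1202 ± 24.5 to 3114 ± 70.5 (1.37, adjusted p = 1.1e-20, edgeR) and SDC1 from 733 ± 16.5 to 1672 ± 54.5 (1.19, adjusted p = 1.7e-17, edgeR). The glypicans GPC3 and GPC6 fell, GPC3 from 304 ± 15.0 to 81.1 ± 18.9 (log2 fold change -1.90, adjusted p = 3.8e-13, edgeR; SD, n = 3 each). Under the GC correction the log2 fold change was 2.21 for SDC4, 0.70 for GPC1, 0.61 for SDC1 and -1.90 for GPC3. AGRN, the most abundant of the list, had a log2 fold change of 0.88, or 0.21 under the GC correction, under which 8 genes were again higher and 3 lower, with a median of 0.35.

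Enzymes that build or trim heparan sulfate moved both ways, with 4 of 14 tested genes higher and 7 lower, beside 36.5% and 35.9% of all tested genes. EXT1, a chain polymerase, rose from 355 ± 25.8 to 862 ± 9.47 normalized counts (log2 fold change 1.28, adjusted p = 1.5e-15, edgeR) and the 6-O-sulfotransferase HS6ST1 from 447 ± 41.4 to 945 ± 33.3 (1.08, adjusted p = 5.4e-14, edgeR). Its relative HS3ST3B1, a 3-O-sulfotransferase, fell from 278 ± 33.0 to 111 ± 14.5 (log2 fold change -1.33, adjusted p = 1.4e-10, edgeR), the epimerase GLCE from 1356 ± 10.7 to 747 ± 19.0 (-0.86, adjusted p = 1.7e-14, edgeR) and the extracellular sulfatase SULF2 from 148 ± 5.93 to 80.6 ± 16.2 (-0.88, adjusted p = 7.3e-06, edgeR; SD, n = 3 each). EXTL3, the most abundant, had a log2 fold change of 0.47. Under the GC correction, 6 genes of the list were higher and 6 lower, and the median went from -0.18 to 0.06. The 6 named genes kept their direction, with smaller values for HS6ST1 (0.46) and GLCE (-0.36). With their values known, HS2ST1 is named as turning from -0.38 to 0.18 (adjusted p = 4.4e-04, edgeR) and EXTL2 as losing its call, at -0.46 and -0.04.

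Docking proteins and adaptors downstream of the receptors were all tested, 5 of 12 being higher and 7 lower. Of all tested genes, 36.5% were higher and 35.9% lower. SHC1, an adaptor, rose from 701 ± 41.8 to 1901 ± 52.8 normalized counts (log2 fold change 1.44, adjusted p = 6.3e-19, edgeR), FRS3 had a log2 fold change of 0.83 and GRB2 of 0.33, or 1.05, 0.20 and 0.18 for the 3 genes under the GC correction. The exchange factors SOS1 (log2 fold change -0.79) and SOS2 (-0.61) and the docking protein GAB1 (-0.81) fell, less so under the GC correction (-0.35, -0.17 and -0.25). FRS2, named with its values known, went from -0.40 (adjusted p = 1.8e-07, edgeR) to 0.18 under that correction (adjusted p = 0.00273, edgeR). PTPN11, a phosphatase and the most abundant of the list, went from 5906 ± 113 to 4770 ± 190 (SD, n = 3 each; log2 fold change -0.31, adjusted p = 9.2e-09, edgeR), or to 0.08 under the GC correction.

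Feedback inhibitors and target genes of FGF-ERK signalling showed no common direction. Of 17 tested genes, 5 were higher and 9 lower in GFI1-KO (median log2 fold change -0.13), beside 36.5% and 35.9% of all tested genes. SPRY4, a Sprouty inhibitor, rose from 1002 ± 51.5 to 1911 ± 33.2 normalized counts (log2 fold change 0.93, adjusted p = 7.7e-16, edgeR) and the immediate early gene EGR1 from 658 ± 45.5 to 1323 ± 27.4 (1.01, adjusted p = 6.4e-15, edgeR). ETV1, an ETS factor, fell from 2620 ± 66.2 to 1176 ± 5.002 (log2 fold change -1.16, adjusted p = 5.8e-19, edgeR), the phosphatase DUSP5 from 1598 ± 62.5 to 1174 ± 66.6 (-0.45, adjusted p = 5.5e-09, edgeR) and IL17RD, an FGF antagonist at the membrane, from 498 ± 9.64 to 371 ± 15.8 (-0.42, adjusted p = 5.8e-06, edgeR; SD, n = 3 each). ETV4 was at 0.19, or -0.41 under the GC correction, and DUSP4, the most abundant, at 0.11, or 0.05 without a call (adjusted p = 0.201, edgeR). Values under the GC correction were 0.63 for EGR1, -0.56 for ETV1, -0.24 for IL17RD and -0.85 for DUSP5.

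Of the factors that splice FGFR transcripts, PTBP1 rose (log2 fold change 0.37, adjusted p = 9.1e-11, edgeR), but was at -0.17 under the GC correction, and ESRP1, which favours epithelial isoforms, fell from 128 ± 11.1 to 90.2 ± 15.1 normalized counts (SD, n = 3 each; -0.51, adjusted p = 0.00350, edgeR), or to -0.22 under the GC correction (adjusted p = 0.213, edgeR). Gene counts do not show receptor isoforms. Among 8 tested sodium channel subunits, the partners of FGF13, 3 were higher and 3 lower, beside 36.5% and 35.9% of all tested genes. SCN3A fell from 848 ± 23.7 to 16.7 ± 2.34 normalized counts (log2 fold change -5.65, adjusted p = 1.0e-23, edgeR; SD, n = 3 each), while FGF13 itself showed no detectable difference. SCN3B, an auxiliary subunit, had a log2 fold change of -0.55 and SCN2A of -0.70, but SCN2A was at -0.08 under the GC correction (adjusted p = 0.658, edgeR).

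**Figure D5:**
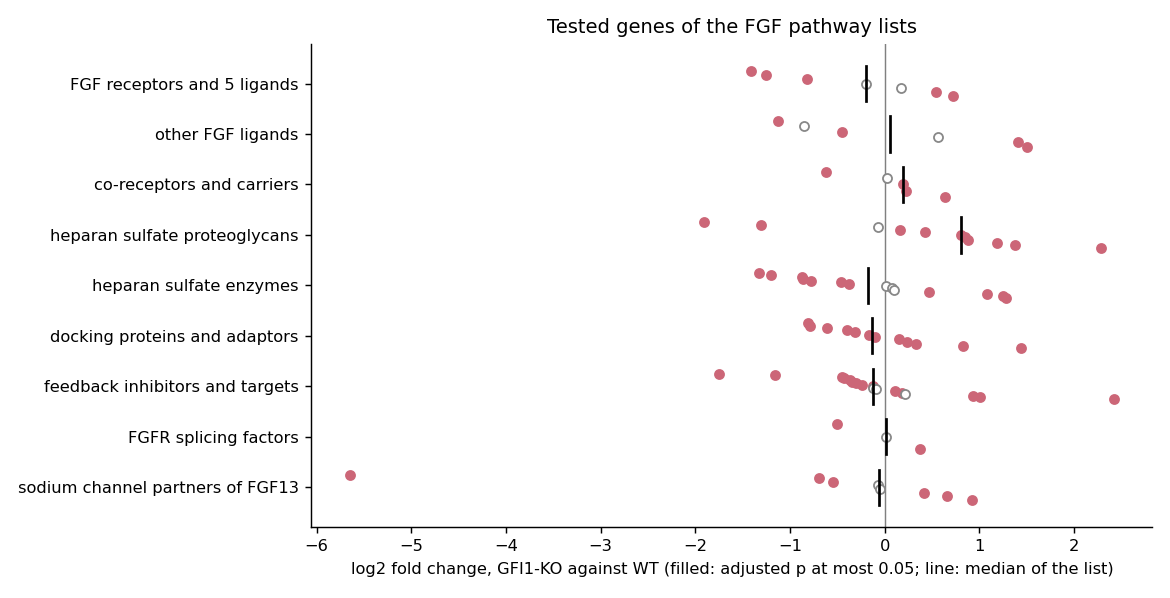
log2 fold change (GFI1-KO against WT) of each tested gene of the FGF receptors and 5 ligands and of 8 FGF pathway lists. Filled points passed an adjusted p of at most 0.05 in edgeR, open points did not, and black lines are list medians. Heparan sulfate proteoglycans have a median of 0.81, and the far left point is SCN3A at -5.65.

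As a description, the genes whose log2 CPM over the 6 libraries were most like those of FGFRL1, the receptor with the highest FPKM, were RMI2 (Pearson's r = 0.998), BLOC1S5 (0.998) and FASN (0.997). With libraries in only 2 groups, 2611 genes had an r above 0.95 with FGFRL1.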

How the data were processed

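The authors deposited raw counts per gene and library with gene positions and lengths. By the methods, poly-T-selected RNA was sequenced on an Illumina NovaSeq, aligned to GRCh38/hg38 with Hisat2 and counted with featureCounts, whereas the submitters' processing notes name Bowtie2, HTSeq and hg38. Strand setting and treatment of reads matching several places are not given in the sources used here. Positions of all 10 genes overlap GENCODE release 44.

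The 3 GFI1-KO and 3 WT libraries were compared with edgeR 4.0.16 in R 4.3.3 (TMM factors, filterByExpr, quasi-likelihood F test, Benjamini-Hochberg adjustment over all tested genes, adjusted p of at most 0.05, no fold change minimum). Standard errors are the log2 fold change divided by the root of F. Correction for GC content (longest GENCODE transcript) and deposited length used natural splines of 5 degrees of freedom per library. Other alternatives were DESeq2 1.42.0, other factors and filters, the replicate number as a block, and leaving out each library. Shares were compared with exact permutation tests. The fit was tested on simulated data.

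The 10 genes, the lists and the tests were chosen with earlier results of these data known. Named genes are the 10 genes, GFI1, overlapping genes, neighbours of FGFR3 and FGFRL1, and in each list up to 3 genes with the largest rise, up to 3 with the largest fall and at least 50 normalized counts, and the most abundant one. Some genes of this rule are given only in counts, and some are not reported here.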

Additional observations from a re-analysis of the deposited data

How the results depend on the processing

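Of 727 recomputed values for 54 results, 682 kept their direction and side of the threshold, or for counts stayed within 1.5 times. The correction for GC content and gene length accounted for most others, first alone and then combined with a replicate block. It gave log2 fold changes of 0.13 and 0.12 for FGFR3, -0.46 and -0.46 for FGFR4 and 0.37 and 0.37 for FGF13. Higher genes were 0 and 0 among further ligands, 1 and 1 among co-receptors (2 and 2 lower), 3 with the block among docking proteins, 3 and 3 in the first 5 Mb of chromosome 4, and 114 and 114 on its rest (187 and 185 lower). Within 2 Mb there were 1 and 1 lower around FGFR1, 3 and 3 higher around FGFR3, 15 and 15 higher around FGFR4, 3 and 3 higher around FGFRL1, 3 and 3 higher and 3 and 3 lower around FGF2, 6 and 6 lower around FGF9 and 2 and 2 higher around FGF13. Without the correction, the block changed no call among the tested FGF genes (for FGF2 the log2 fold change was -1.42 with the block). Deviations of same-numbered libraries from their group means correlated with r of -0.00587, 0.0138 and 0.0210, so that no effect shared by number was detected. This does not show whether the libraries were prepared in pairs, which the labels do not give. DESeq2 gave -1.27 for FGF1 without a call and 0 lower co-receptors. A filter of 10 counts in every library left 0 higher further ligands and removed FGF1. Leaving out 1 library gave 1 to 3 higher further ligands, 1 without GFI1-KO replicate 1, and 0 to 1 lower co-receptors, 0 without WT replicate 2 or GFI1-KO replicate 1. As shares of counts rather than FPKM, the difference between the groups in percentage points was 18.1 for FGFR1, 3.17 for FGFR3, 1.24 for FGFR4 and -22.6 for FGFRL1. The cause of the GC trend was not tested. Depth limits FGFR2, FGF9, FGF18 and FGF1.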
